A study of Mus musculus with 8 samples.

Results

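The genes described here encode subunits of the nuclear RNA polymerases I, II and III and of Mediator, compared between c-MYC liver tumours and control livers of mice. They are all genes whose symbol begins with Polr1, Polr2 or Polr3, or with Med followed by a digit, among probe sets assigned to exactly 1 gene. The rule gave 57 measured genes, out of 19937 genes in all: 5 Polr1, 13 Polr2, 9 Polr3 and 30 Med genes. The rule reads gene symbols and no measured value.

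Total RNA of 4 liver tumours and 4 control livers was hybridised to 8 Affymetrix mouse gene arrays, with biotin label, in 1 colour, 1 array per sample. Per the labels, the tumours arose in mice with human c-MYC overexpressed in the liver from the CEBPB-LAP promoter, which is active in hepatocytes, under doxycycline control, and were collected once the mice had reached the humane endpoint. The controls were normal livers of matched mice. The transgene text stands on all 8 samples, so whether the control mice carried the transgene or received doxycycline is not told, and neither strain, age nor the doxycycline schedule is given. The labels number the samples without naming mice, and a p-value here therefore speaks of the spread among the 8 samples, part of which may be technical.

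RNA polymerase I transcribes the large ribosomal RNA precursor, polymerase II transcribes messenger RNAs, and polymerase III transcribes transfer RNAs, 5S ribosomal RNA and other short RNAs. Each is a multi-subunit enzyme, and some subunits are common to several of them. Mediator is a large assembly of head, middle and tail modules, held together by a backbone subunit, that carries signals from DNA-bound activators to polymerase II, and it binds a separable kinase module. MYC is known as a transcription factor that raises ribosome production and acts on genes of all these polymerases.

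Values are deposited log2 values after RMA, given in the order of sample numbers 1 to 4, and a log2 change is the tumour mean minus the control mean. A gene was called higher or lower where limma's adjusted p (Benjamini-Hochberg over all 19937 genes) was under 0.05. Array medians lay between 6.33 and 6.44, and 56 of the 57 members were among the 13291 genes left when the 6646 dimmest genes were set aside. Mouse Myc averaged 7.04 ± 0.22 in the tumours and 6.82 ± 0.66 in the control livers (SD, n = 4 each), with a log2 change of 0.21 (SE 0.28, adjusted p = 0.635), and the groups overlapped. The transgene is human, and whether this probe set reads it is not given in the sources used here. The tissue label was met by hepatocyte markers in both groups, although all 6 measured were called lower and their mean was 11.73 to 12.36 in the tumours, against 12.66 to 12.84 in the control livers. All 4 measured dividing-cell markers (Mki67, Top2a, Bub1 and Cdk1) were called higher, with a list mean of 9.46 to 9.87 in the tumours and 5.08 to 5.93 in the control livers. Endothelial markers had 4 of 7 genes called lower (mean 6.72 to 7.12 in the tumours, 7.25 to 7.87 in the control livers), and stellate cell and fibroblast markers had 3 of 7 called lower (6.79 to 7.28 in the tumours, 7.50 to 7.80 in the control livers). Of macrophage markers, 1 of 6 was called higher and 1 lower (7.34 to 7.72 in the tumours, 7.01 to 7.90 in the control livers), as were 1 and 1 of 4 bile duct markers (6.06 to 6.46 in the tumours, 6.08 to 6.21 in the control livers). None of the 4 lymphocyte markers (5.18 to 5.58 in the tumours, 5.23 to 6.04 in the control livers) or 2 erythroid markers (6.88 to 7.27 in the tumours, 7.02 to 7.42 in the control livers) was called in limma, nor did any pass an unadjusted p of 0.05. The part of cell make-up and division in the results that follow was not tested, and in bulk tissue fewer cells of a type and less RNA per cell cannot be told apart.

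Most polymerase subunit genes were called higher in the tumours, with the highest median change in polymerase I. Of the 30 Mediator genes 19 were not called, as were 14180 of all 19937 genes. Of the 57 genes, 26 (45.6%) were called higher, 3 (5.26%) lower and 28 were not called. Over all genes tested, 16.2% were called higher and 12.7% lower. A separate fit with the dimmest genes set aside, adjusted anew, called 24.2% higher and 17.4% lower. That separate fit called higher 5 polymerase I, 8 polymerase II, 6 polymerase III and 12 of 29 Mediator genes. It called lower 1 polymerase II and 2 Mediator genes. In the fit over all genes, all 5 polymerase I genes were called higher. So were 6 of 13 polymerase II genes, 6 of 9 polymerase III genes and 9 of 30 Mediator genes. The genes called lower were Polr2i of polymerase II and Med7 and Med12l of Mediator. No Polr1 or Polr3 gene was lower in limma, nor was any at an unadjusted p under 0.05. Crcp, a polymerase III subunit outside the naming rule, was called lower and is described with the other transcription genes. The median log2 change was 1.43 for polymerase I, 0.70 for polymerase II, 0.38 for polymerase III and 0.27 for Mediator, against -0.04 over all genes tested. These groups follow the symbols, so a subunit shared between enzymes counts only in the group that its symbol names. Without the shared subunits the median was 1.72 over 3 polymerase I genes, 0.73 over 8 polymerase II genes and 0.38 over 9 polymerase III genes.

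In 29 of the 57 genes every tumour lay above every control liver, and in 3 every tumour lay below, against 16.3% above and 13.9% below over all genes. A change of at least 2-fold was called higher in 5 members, 4 of them Polr1 genes and the other Polr2g, and lower in Med12l. Over all genes tested, 5.54% were called higher and 4.68% lower by at least 2-fold. The median SD within a group was 0.18 in the tumours and 0.18 in the control livers for the members, against 0.17 in the tumours and 0.16 in the control livers for all genes.

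**Figure D1:**
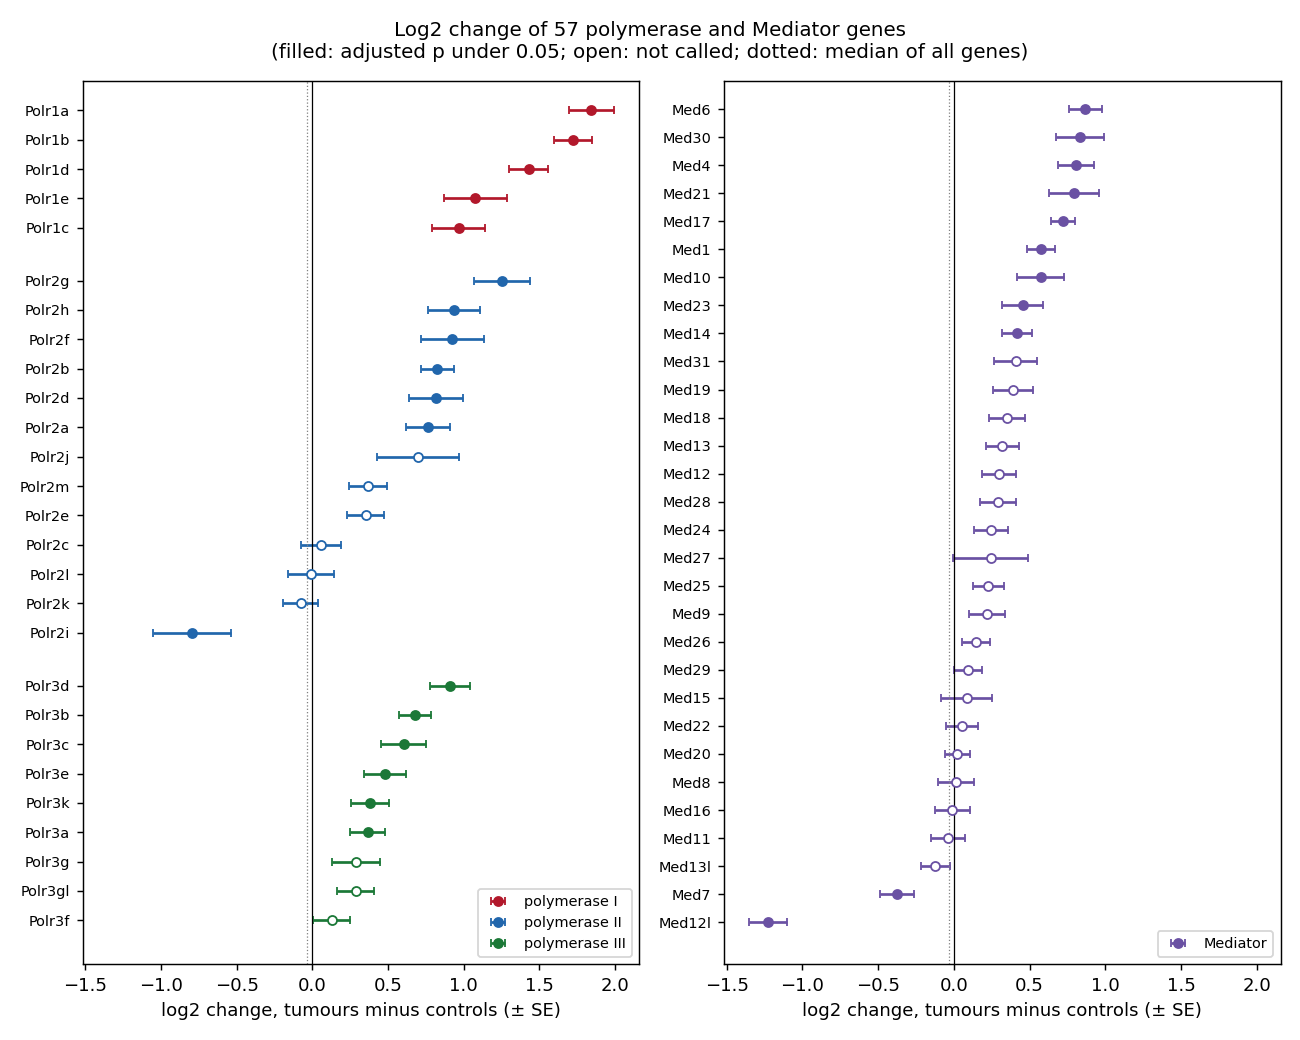
Log2 change (tumours minus controls, horizontal axis) of the 57 genes with SE bars from limma, polymerase genes on the left and Mediator genes on the right, each complex in its own colour. Filled points passed an adjusted p of 0.05, and the dotted line is the median of all genes at -0.04. All 5 Polr1 points are filled and lie at or above 0.97. Of the 30 Mediator points 19 are open, 9 are filled above 0 and 2 are filled below 0.

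The log2 changes of the polymerase I genes ran from 0.97 to 1.84, and every tumour exceeded every control liver in all 5 genes. Polr1a, the catalytic largest subunit, read 9.64, 9.25, 9.45 and 9.04 in the tumours, against 7.21, 7.61, 7.65 and 7.54 in the control livers. The lowest tumour stood more than 1 log2 unit above the highest control liver. Its mean was 9.35 ± 0.26 in the tumours and 7.50 ± 0.20 in the control livers (SD, n = 4 each), a 3.59-fold rise with a log2 change of 1.84 (SE 0.15, adjusted p = 6.84e-06). Polr1b, the other large subunit, which closes the active centre with Polr1a, read 8.40, 7.96, 8.19 and 7.88 in the tumours, against 6.28, 6.47, 6.31 and 6.46 in the control livers. The control livers lay close together and far under the tumours, and the rise was 3.3-fold, with a log2 change of 1.72 (SE 0.13, adjusted p = 3.28e-06). Polr1e forms, with a partner subunit, a dimer specific to polymerase I that acts in initiation and elongation, and it read 8.32, 7.55, 7.86 and 7.15 in the tumours, against 6.61, 6.57, 6.57 and 6.83 in the control livers. Tumour 1 was highest and tumour 4 came nearest to the controls, and the mean was 7.72 ± 0.50 in the tumours and 6.64 ± 0.12 in the control livers (SD, n = 4 each). The log2 change of Polr1e was 1.08 (SE 0.21, adjusted p = 0.00289), or 2.11-fold.

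Polr1c and Polr1d encode the pair of subunits that polymerases I and III share and on which both enzymes are assembled. Polr1d read 11.47, 11.31, 11.56 and 11.48 in the tumours, against 9.86, 9.78, 10.26 and 10.20 in the control livers. The tumours lay close together and clear of the controls, and the rise was 2.69-fold, with a log2 change of 1.43 (SE 0.13, adjusted p = 1.43e-05). Polr1c read 9.35, 8.80, 9.29 and 8.68 in the tumours, against 8.10, 7.88, 7.92 and 8.35 in the control livers, a 1.96-fold rise with a log2 change of 0.97 (SE 0.17, adjusted p = 0.00169), and tumours 1 and 3 were its highest arrays. A second probe set of Polr1d had a log2 change of 1.31 (SE 0.17, adjusted p = 0.000165).

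The RefSeq table used for names lists further polymerase I subunits under older symbols, which the naming rule does not catch, and they were added after the values were seen. Cd3eap, the partner of Polr1e in its dimer, was called higher at 0.75 (SE 0.13, adjusted p = 0.0012). Twistnb, a subunit of the stalk, changed by 0.31 (adjusted p = 0.0529) and Znrd1, a small subunit near the active centre, by 0.11 (adjusted p = 0.706), and neither was called. With them, 6 of 8 polymerase I genes were higher and the median was 1.02.

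Polymerase II genes ran from -0.79 to 1.25 in log2 change. Its largest subunit, Polr2a, which carries the long repeat tail that is phosphorylated during transcription, read 8.93, 8.51, 8.89 and 8.69 in the tumours, against 7.76, 7.81, 8.08 and 8.31 in the control livers. The groups did not overlap, with control liver 4 nearest to the tumours, and the rise was 1.7-fold with a log2 change of 0.76 (SE 0.15, adjusted p = 0.00251). Polr2b, the other large subunit of the catalytic core, read 10.32, 9.99, 10.34 and 10.27 in the tumours, against 9.40, 9.26, 9.50 and 9.46 in the control livers, and its log2 change was 0.83 (SE 0.11, adjusted p = 0.0002). The gap between the groups was wider than the range within either one.

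Polr2g encodes a subunit of the stalk, which binds the emerging transcript, and had the largest rise of polymerase II. It read 10.72, 10.31, 10.72 and 10.58 in the tumours, against 9.79, 8.85, 9.48 and 9.20 in the control livers, and all tumours were above all control livers. Its mean was 10.58 ± 0.20 in the tumours and 9.33 ± 0.40 in the control livers (SD, n = 4 each), a 2.38-fold rise with a log2 change of 1.25 (SE 0.19, adjusted p = 0.000503). Polr2d, its partner in the stalk, also rose, by 0.82 (SE 0.18, adjusted p = 0.00509), with no overlap.

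Polr2e, Polr2f, Polr2h, Polr2k and Polr2l are shared by all 3 polymerases, and 2 of the 5 were called higher. Polr2h read 10.19, 9.62, 9.79 and 9.51 in the tumours, against 9.01, 8.47, 9.03 and 8.86 in the control livers, with no overlap and a log2 change of 0.94 (SE 0.17, adjusted p = 0.00185), and a second probe set gave 0.51 (SE 0.11, adjusted p = 0.00474). Polr2f read 8.75, 7.76, 8.25 and 7.79 in the tumours, against 7.27, 7.04, 7.10 and 7.44 in the control livers, and again the groups did not overlap, with tumour 1 highest and a log2 change of 0.93 (SE 0.21, adjusted p = 0.00609). Polr2e changed by 0.35 (adjusted p = 0.0588), not called although every tumour exceeded every control liver, and it was called without tumour 4 (adjusted p = 0.0424). Polr2k changed by -0.08 (adjusted p = 0.687) and Polr2l by -0.01 (adjusted p = 0.981), and neither was called.

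Polr2i, a small subunit that in yeast is known for its part in start site choice and transcription fidelity, was the only polymerase gene of the 27 called lower. It read 6.97, 6.51, 6.75 and 5.90 in the tumours, against 7.07, 6.98, 7.29 and 7.97 in the control livers. Every tumour lay below every control liver, narrowly for tumour 1, with tumour 4 lowest and control liver 4 highest. The mean was 6.53 ± 0.46 in the tumours and 7.32 ± 0.45 in the control livers (SD, n = 4 each), and the log2 change was -0.79 (SE 0.26, adjusted p = 0.0416). The call was lost without any 1 of tumours 2, 3 and 4 or control livers 3 and 4, with adjusted p from 0.0558 to 0.0923.

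Polr2c and Polr2j, which form the assembly pair of polymerase II, were not called. Polr2j read 9.74, 8.98, 9.60 and 8.55 in the tumours, against 8.49, 7.99, 8.66 and 8.94 in the control livers, with tumours 1 to 3 above all controls and tumour 4 among them, for a log2 change of 0.70 (SE 0.27, adjusted p = 0.0844), and without tumour 4 it was called higher (log2 change 0.92, adjusted p = 0.0207). The kept probe set of Polr2c read 7.50, 7.45, 7.39 and 7.40 in the tumours, against 7.01, 7.57, 7.61 and 7.33 in the control livers, and the groups overlapped, with a log2 change of 0.06 (SE 0.13, adjusted p = 0.811) and a 95% interval of -0.24 to 0.35. A second probe set of Polr2c gave 1.06 (SE 0.26, adjusted p = 0.0118), so the size and the call of this gene rest on the probe set. Polr2m, which binds polymerase II and makes it depend on Mediator, changed by 0.37 (adjusted p = 0.0531) and was not called, while every tumour lay above every control liver, and without control liver 3 it was called (adjusted p = 0.0323).

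**Figure D2:**
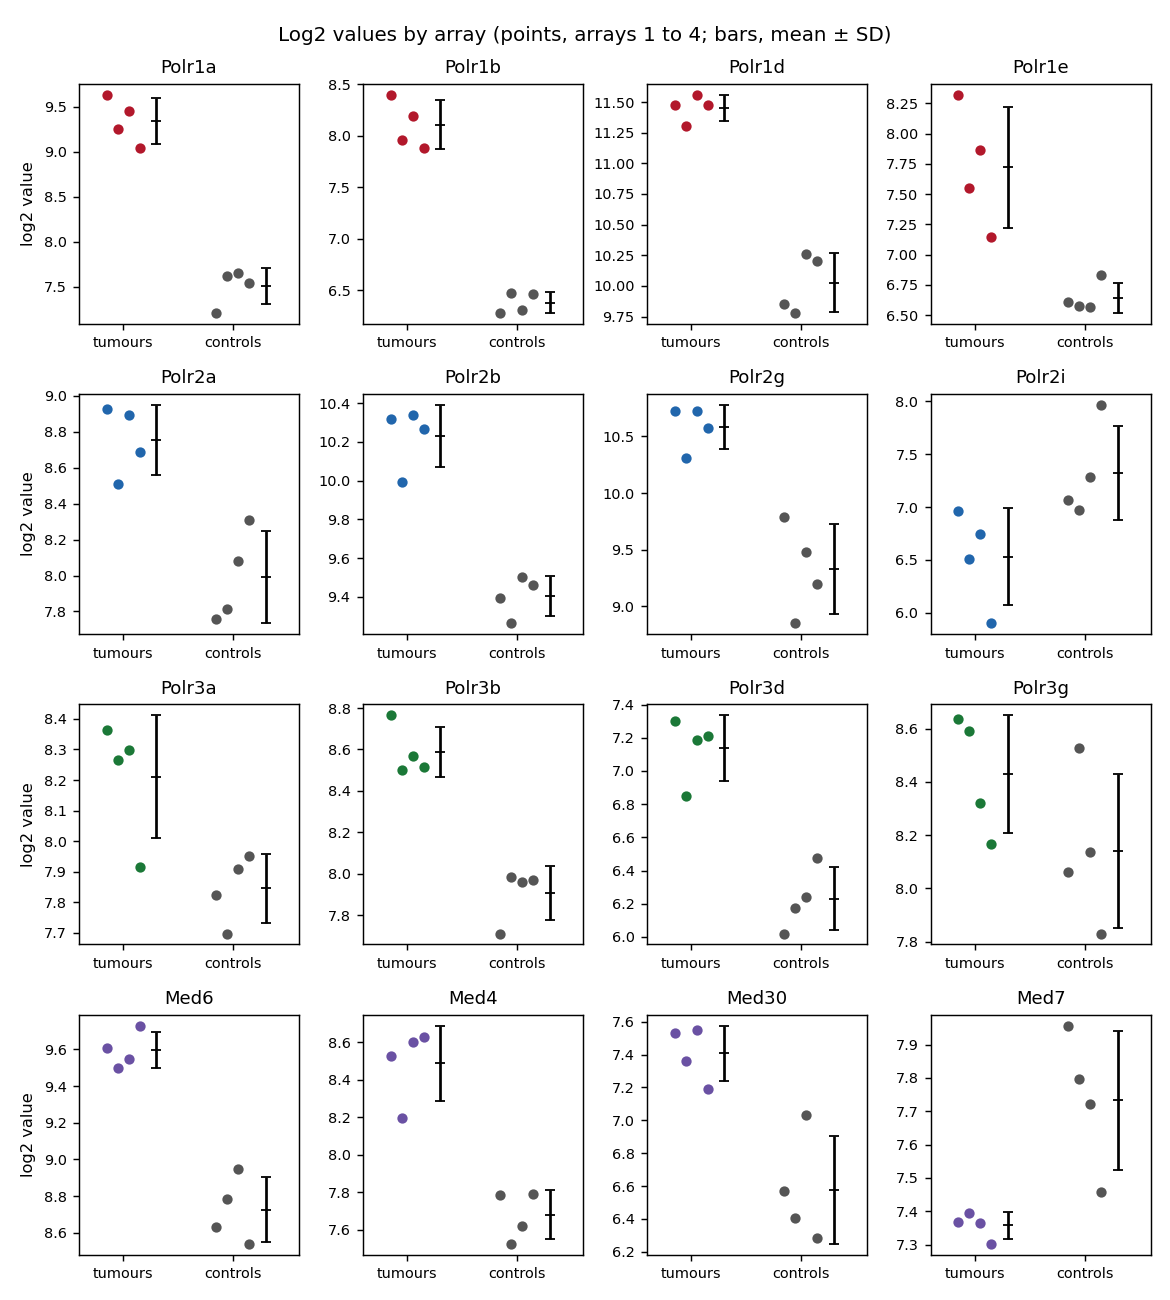
Deposited log2 values (vertical axis, own scale per panel) of 16 of the genes, with the 4 tumours as coloured points left of the 4 control livers in grey, and the mean ± SD beside each group. The groups stand apart in 14 panels and overlap for Polr3a and Polr3g, and the tumours are the lower group only for Polr2i and Med7.

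Of the 9 polymerase III genes, 6 were called higher and none reached 2-fold. The shared Polr1c (1.96-fold) and Polr1d (2.69-fold) are counted under polymerase I. Polr3d, part of a dimer that acts in initiation and termination, had the largest rise and read 7.30, 6.85, 7.19 and 7.21 in the tumours, against 6.02, 6.18, 6.24 and 6.48 in the control livers. Its tumours were all above its controls, with tumour 2 lowest, and the log2 change was 0.91 (SE 0.13, adjusted p = 0.000407), or 1.88-fold. Polr3e, its partner in the dimer, read 7.96, 7.87, 7.94 and 8.21 in the tumours, against 7.78, 7.68, 7.26 and 7.33 in the control livers. The groups did not overlap but tumour 2 and control liver 1 came close, and the log2 change was 0.48 (SE 0.14, adjusted p = 0.0234). The call on Polr3e was lost without tumour 4, control liver 3 or control liver 4 (adjusted p 0.0569 to 0.0635), whereas a second probe set gave 1.09 (SE 0.13, adjusted p = 0.000123).

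The large subunits of polymerase III were both called higher. Polr3b, the second subunit of its active centre, read 8.77, 8.50, 8.57 and 8.52 in the tumours, against 7.71, 7.99, 7.96 and 7.97 in the control livers, and tumours and controls did not overlap, with a log2 change of 0.68 (SE 0.10, adjusted p = 0.000594). Polr3a, the catalytic largest subunit, read 8.37, 8.27, 8.30 and 7.92 in the tumours, against 7.82, 7.70, 7.91 and 7.95 in the control livers. Tumour 4 fell among the control livers while the other tumours lay above them, and the log2 change was 0.37 (SE 0.12, adjusted p = 0.0406). That call was lost without any 1 of tumours 1 to 3 or control livers 1 to 3, with adjusted p from 0.0609 to 0.113.

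Polr3c, Polr3f and either Polr3g or its paralog Polr3gl make up the trimer that opens promoters for polymerase III. Polr3c read 8.60, 8.39, 8.70 and 8.01 in the tumours, against 7.72, 7.71, 7.90 and 7.95 in the control livers. All tumours were above all controls, tumour 4 by little, and the log2 change was 0.60 (SE 0.15, adjusted p = 0.0111). Polr3f changed by 0.13 (adjusted p = 0.507) and was not called. Polr3k, a small subunit with a part in termination and RNA cleavage, was called higher at 0.38 (adjusted p = 0.0434). Its groups did not overlap, but tumour 2 barely exceeded control liver 1. The call on Polr3k was lost without tumour 1, 3 or 4 or control liver 2 or 4 (adjusted p 0.0765 to 0.116).

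Polr3g is known in human cells as the form of this subunit found in stem cells and transformed cells, and Polr3gl as the form of most adult tissues. Polr3g read 8.64, 8.59, 8.32 and 8.17 in the tumours, against 8.06, 8.53, 8.14 and 7.83 in the control livers. Control liver 2 stood among the tumours, so the groups overlapped, and the log2 change was 0.29 (SE 0.16, adjusted p = 0.225) with a 95% interval of -0.07 to 0.65. Polr3gl read 7.82, 7.96, 7.81 and 7.80 in the tumours, against 7.31, 7.54, 7.86 and 7.55 in the control livers. Control liver 3 matched the tumours, the others lay below, and the log2 change was 0.29 (SE 0.12, adjusted p = 0.109) with a 95% interval of 0.02 to 0.55. Without control liver 3 Polr3gl was called higher at 0.38 (adjusted p = 0.0267). The difference Polr3g minus Polr3gl within an array was 0.58 ± 0.19 in the tumours and 0.58 ± 0.36 in the control livers (SD, n = 4 each), with a 2-sided exact permutation p of 1.0 over 70 splits. No shift between these paralogs was detectable with 4 arrays a group.

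Of the 30 Mediator genes 9 were called higher and 2 lower, beside 17 higher and 1 lower of the 27 polymerase genes. Whether the complexes differ in this was not tested. The shares over all genes tested were 16.2% higher and 12.7% lower. With the dimmest genes set aside and adjusted anew, they were 24.2% and 17.4%, and 12 of 29 Mediator genes were called higher and 2 lower. The counts by module given here and below stand against these shares. Each rests on few genes, and none was tested against the shares or counted in that separate fit. The head module, which contacts polymerase II, had 2 of 7 genes called higher. Med6, a conserved head subunit needed for activated transcription in yeast, read 9.61, 9.50, 9.55 and 9.73 in the tumours, against 8.63, 8.79, 8.95 and 8.54 in the control livers, without overlap and with a log2 change of 0.87 (SE 0.11, adjusted p = 0.00017), the largest rise of Mediator at 1.83-fold. Med17, the scaffold of the head, read 8.41, 8.45, 8.46 and 8.37 in the tumours, against 7.70, 7.70, 7.72 and 7.69 in the control livers, with a log2 change of 0.72 (SE 0.08, adjusted p = 6.83e-05). Both groups spanned less than 0.1 log2 units and lay far apart. Med8, Med11, Med18, Med20 and Med22 of the head were not called, with log2 changes of 0.01, -0.04, 0.35, 0.02 and 0.05. Med18 was the 1 member among the dimmest genes, at the 15.8th percentile of control means, and it was called without tumour 2, tumour 4 or control liver 3 (adjusted p 0.0399 to 0.0405).

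In the middle module, which joins head and tail, 4 of 7 genes were called higher and 1 lower. Med4 read 8.53, 8.20, 8.60 and 8.63 in the tumours, against 7.79, 7.52, 7.62 and 7.79 in the control livers. Every tumour was above every control liver, and the log2 change was 0.81 (SE 0.12, adjusted p = 0.000494), beside 0.96 (SE 0.13, adjusted p = 0.000246) from a second probe set. Med21 rose by 0.80 (SE 0.17, adjusted p = 0.00409) and Med10 by 0.57 (SE 0.16, adjusted p = 0.0184), and Med10 was not called without tumour 1 or tumour 3 (adjusted p 0.0549 to 0.0572). Med1, the subunit that nuclear receptors bind, rose by 0.57 (SE 0.09, adjusted p = 0.000872) with no overlap between groups. Med9 and Med31 were not called at 0.22 (adjusted p = 0.224) and 0.41 (adjusted p = 0.0532), and Med31 was called without tumour 2, control liver 1 or control liver 3 (adjusted p 0.0292 to 0.0495).

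Med7, which in yeast forms the hinge of the middle module with Med21, was lower in the tumours while Med21 was higher. Med7 read 7.37, 7.40, 7.37 and 7.30 in the tumours, against 7.96, 7.80, 7.72 and 7.46 in the control livers. The tumours lay within 0.1 log2 units of each other and below all control livers, the nearest being control liver 4. Its log2 change was -0.38 (SE 0.11, adjusted p = 0.0293), and the call was lost without any 1 array other than control liver 4 (adjusted p 0.0543 to 0.0775).

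Med14, the backbone that joins the modules, rose by 0.42 (SE 0.10, adjusted p = 0.00983), with every tumour above every control liver. In the tail, which activators bind, 1 of 5 genes was called. Med23, a tail subunit that receives growth-factor signals through Elk1, was higher by 0.46 (SE 0.14, adjusted p = 0.0282), but its groups overlapped and the call was lost without tumour 1, 2 or 3 or control liver 2 or 3 (adjusted p 0.0568 to 0.0828). Med15, Med16, Med24 and Med25 changed by 0.09, -0.01, 0.25 and 0.23 and were not called. Of 6 subunits whose place in Mediator differs between accounts, only Med30, a subunit of animal Mediator that yeast lacks, was called higher. Med30 read 7.53, 7.36, 7.55 and 7.19 in the tumours, against 6.57, 6.41, 7.03 and 6.29 in the control livers, and control liver 3 came nearest to the tumours without reaching them, for a log2 change of 0.83 (SE 0.16, adjusted p = 0.00269). Med19, Med26, Med27, Med28 and Med29 changed by 0.39, 0.15, 0.24, 0.29 and 0.09 and were not called, though Med19 was called without control liver 1 (adjusted p = 0.032) and Med28 without control liver 4 (adjusted p = 0.0489).

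The kinase module binds Mediator reversibly and holds Med12 or Med12l, Med13 or Med13l, cyclin C and the kinase Cdk8 or Cdk19. Its clearest member was Med12l, which read 5.85, 5.92, 5.81 and 6.25 in the tumours, against 7.17, 7.03, 7.38 and 7.15 in the control livers. All tumours lay more than 0.7 log2 units below the lowest control liver. The mean was 5.96 ± 0.20 in the tumours and 7.18 ± 0.15 in the control livers (SD, n = 4 each), a 2.34-fold fall with a log2 change of -1.23 (SE 0.12, adjusted p = 3.24e-05). Med12, the paralog that activates the kinase, read 8.17, 8.28, 8.06 and 8.02 in the tumours, against 7.89, 7.61, 7.84 and 8.01 in the control livers. Tumour 4 barely exceeded control liver 4, the groups did not overlap, and the log2 change of 0.30 (SE 0.11, adjusted p = 0.0746) was not called, though it was without control liver 4 (adjusted p = 0.0498).

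Med13 ties the kinase module to Mediator and read 9.95, 10.25, 10.15 and 10.18 in the tumours, against 10.03, 9.74, 9.70 and 9.78 in the control livers. Tumour 1 lay below control liver 1, and the log2 change was 0.32 (SE 0.11), with an adjusted p that rounds to 0.05 and did not pass. It passed without tumour 1 or control liver 1 (adjusted p 0.0213 to 0.0358). Med13l read 7.06, 7.00, 7.04 and 6.85 in the tumours, against 7.08, 6.96, 7.23 and 7.17 in the control livers, with overlapping groups and a log2 change of -0.12 (SE 0.10, adjusted p = 0.417). The kinases moved in opposite directions: Cdk8 averaged 10.63 ± 0.07 in the tumours and 9.80 ± 0.18 in the control livers (SD, n = 4 each), with a log2 change of 0.83 (SE 0.11, adjusted p = 0.000194), and Cdk19 averaged 7.22 ± 0.16 in the tumours and 7.70 ± 0.07 in the control livers (SD, n = 4 each), with a log2 change of -0.48 (SE 0.10, adjusted p = 0.00501). Neither kinase had overlapping groups. Ccnc, cyclin C, changed by -0.04 (adjusted p = 0.864) and was not called.

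The difference Med12 minus Med12l within an array was 2.18 ± 0.27 in the tumours and 0.65 ± 0.17 in the control livers (SD, n = 4 each), larger in 4 of 4 tumours than in any control. Such a difference mixes 2 probe sets, so only its change between groups can be read, not the ratio of the paralogs. Its 2-sided exact permutation p was 0.0286, the smallest that 70 splits can give, and 0.0857 after adjustment over the 3 paralog pairs. For Med13 minus Med13l the difference was 3.15 ± 0.19 in the tumours and 2.71 ± 0.21 in the control livers (SD, n = 4 each), with an exact p of 0.0571 and an adjusted p of 0.0857. With 3 pairs and 4 arrays a group, an adjusted p under 0.05 could be reached only if at least 2 pairs had the smallest p, so these changes within pairs are reported as not passing.

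**Figure D3:**
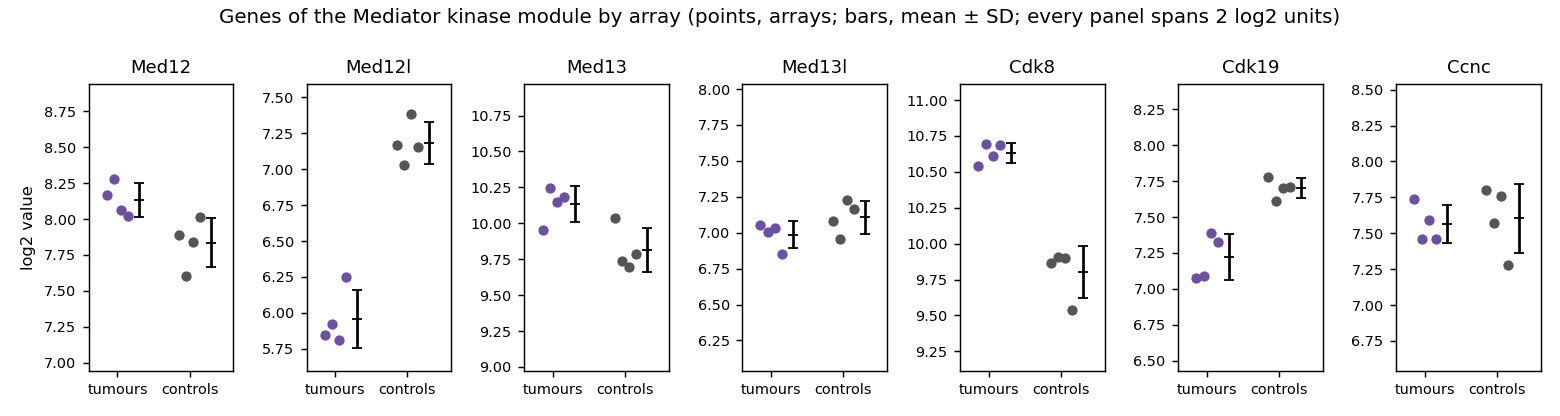
Deposited log2 values (vertical axis, each panel 2 log2 units high) of the kinase module genes in the 4 tumours (purple, left) and 4 control livers (grey, right), with mean ± SD bars. Med12l and Cdk19 are lower and Cdk8 is higher in the tumours without overlap, while Ccnc and Med13l overlap.

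The tumours were not alike. The mean shift of the 5 polymerase I genes from their control means was 1.71, 1.25, 1.55 and 1.12 in tumours 1 to 4, against -0.11, -0.06, 0.02 and 0.15 in control livers 1 to 4. Tumours 1 and 3 were the higher ones. For the 13 polymerase II genes the shift was 0.73, 0.34, 0.57 and 0.25 in the tumours, against -0.01, -0.20, 0.04 and 0.17 in the control livers. For the 9 polymerase III genes it was 0.57, 0.39, 0.48 and 0.40 in the tumours, against -0.02, 0.02, 0.04 and -0.03 in the control livers. For the 30 Mediator genes it was 0.34, 0.22, 0.26 and 0.20 in the tumours, against 0.04, -0.10, 0.02 and 0.03 in the control livers. In each complex tumours 1 and 3 had the highest means, and every tumour lay above every control liver. The spread of all probe sets on an array had the same order among the tumours as the polymerase I shift, with interquartile ranges of 2.42, 2.28, 2.36 and 2.09 in tumours 1 to 4, against 2.16, 2.04, 2.18 and 2.25 in control livers 1 to 4. After quantile normalization, which gives every array the same spread and was added after seeing the data, the polymerase I shift was 1.59, 1.20, 1.45 and 1.16 in the tumours, and the polymerase II shift was 0.61, 0.28, 0.48 and 0.26. Tumours 1 and 3 were then still the highest in both. The polymerase III shift became 0.43, 0.32, 0.37 and 0.44 in the tumours, with tumour 4 highest, and that of Mediator 0.27, 0.18, 0.20 and 0.20. These means describe the arrays and carry no test.

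**Figure D4:**
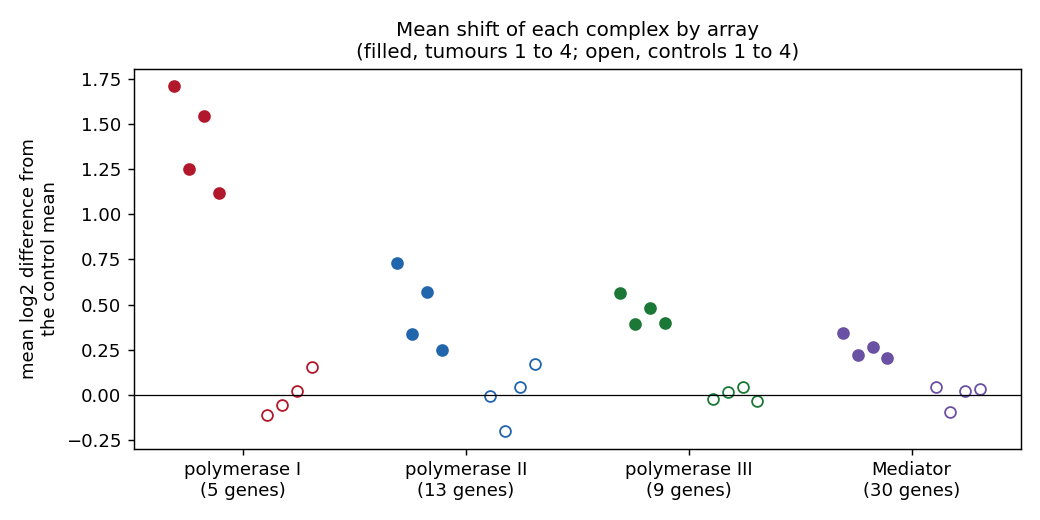
Mean log2 difference from the control mean (vertical axis) over the genes of each complex, 1 point per array, tumours 1 to 4 filled and control livers 1 to 4 open, from left to right. The tumour points run from 1.12 to 1.71 for polymerase I and from 0.20 to 0.34 for Mediator, and tumours 1 and 3 are highest in each complex in the values as deposited.

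MYC with its partner MAX binds the E-box letters CACGTG and, less tightly, the related CACGCG. RefSeq windows from 250 bases before to 50 after the start (build GRCm38.p6) were searched on both strands for these letters; matches to the 2 motifs cannot overlap each other. A window was available for 48 of the 57 genes. CACGTG stood in 7 of them (14.6%), against 9.52% of the 15562 genes tested that had a window. CACGCG stood in 16 (33.3%), against 14.9%. Median GC content was 59.3% in the members' windows and 57.5% in all, and the part of base composition in these shares was not tested. By complex, CACGTG was found in 0 of 5 polymerase I, 1 of 10 polymerase II, 3 of 7 polymerase III and 3 of 26 Mediator windows. The counts for CACGCG were 2 of 5 for polymerase I, 5 of 10 for polymerase II, 3 of 7 for polymerase III and 6 of 26 for Mediator. Of the 16 members with CACGCG, 9 were called higher and none lower, with a median log2 change of 0.65. Of the 32 members without it, 11 were higher and 3 lower, with a median of 0.29. Of the 7 members with CACGTG, 4 were higher (median 0.48), against 16 higher and 3 lower of the 41 without it (median 0.35). Polr1a, Polr1b and Polr1d, which had the largest rises of the 57 genes (1.84, 1.72 and 1.43), held neither motif. Over all genes tested, 16.2% were called higher and 12.7% lower. The split by motif was not made over all genes, so no link of the letters with the changes can be read. These letters are a description of the windows, not binding sites.

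The promoter windows below belong to the member of each complex with the largest rise among those whose single window holds either motif, and to Med12l, the largest fall, whose window holds neither. They show where the letters stand beside the changes of 1.08 for Polr1e, 0.93 for Polr2f, 0.60 for Polr3c, 0.87 for Med6 and -1.23 for Med12l, and were chosen after the values were seen. Each runs 5′ to 3′ on the gene's strand, with the letters of either motif, on either strand, in capitals.
Polr1e (chr4:45018359-45018658, plus strand): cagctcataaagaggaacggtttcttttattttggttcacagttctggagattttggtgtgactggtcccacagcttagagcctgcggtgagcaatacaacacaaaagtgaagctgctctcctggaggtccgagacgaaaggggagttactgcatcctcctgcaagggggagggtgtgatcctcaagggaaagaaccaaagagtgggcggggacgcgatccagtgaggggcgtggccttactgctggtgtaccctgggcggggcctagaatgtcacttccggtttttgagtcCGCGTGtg
Polr2f (chr15:79141075-79141374, plus strand): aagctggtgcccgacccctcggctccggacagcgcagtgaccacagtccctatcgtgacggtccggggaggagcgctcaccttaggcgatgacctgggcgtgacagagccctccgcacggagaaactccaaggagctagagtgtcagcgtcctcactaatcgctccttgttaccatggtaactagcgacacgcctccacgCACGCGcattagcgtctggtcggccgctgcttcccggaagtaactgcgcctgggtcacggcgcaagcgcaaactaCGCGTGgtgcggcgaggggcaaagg
Polr3c (chr3:96727390-96727689, minus strand): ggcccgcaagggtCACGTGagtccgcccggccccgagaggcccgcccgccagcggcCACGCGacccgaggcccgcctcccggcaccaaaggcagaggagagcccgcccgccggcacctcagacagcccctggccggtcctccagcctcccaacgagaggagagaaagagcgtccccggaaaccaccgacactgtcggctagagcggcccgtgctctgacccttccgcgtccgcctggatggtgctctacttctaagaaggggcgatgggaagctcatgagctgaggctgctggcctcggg
Med6 (chr12:81594959-81595258, minus strand): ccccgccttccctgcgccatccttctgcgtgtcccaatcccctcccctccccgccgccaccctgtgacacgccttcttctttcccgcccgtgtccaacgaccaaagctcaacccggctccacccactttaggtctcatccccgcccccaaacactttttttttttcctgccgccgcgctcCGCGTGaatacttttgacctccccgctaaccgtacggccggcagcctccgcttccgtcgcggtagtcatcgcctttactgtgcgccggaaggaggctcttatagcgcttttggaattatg
Med12l (chr3:59006728-59007027, plus strand): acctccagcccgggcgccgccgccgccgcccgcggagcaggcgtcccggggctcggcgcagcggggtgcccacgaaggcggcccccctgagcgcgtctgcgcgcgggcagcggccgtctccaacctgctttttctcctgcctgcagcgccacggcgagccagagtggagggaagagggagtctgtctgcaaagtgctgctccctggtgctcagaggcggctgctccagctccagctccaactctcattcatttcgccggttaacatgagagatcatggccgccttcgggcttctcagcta
Polr2f holds CACGCG letters at 2 places, Polr3c holds 1 of each motif, and Polr1e and Med6 hold 1 CACGCG each.

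In the lists below of other transcription genes, calls in the higher direction were also the more numerous. The same held over all genes tested, with 16.2% called higher and 12.7% lower. Of 9 polymerase I factors 4 were called higher and none lower: Rrn3, which makes polymerase I competent to start, at 1.00 (SE 0.13, adjusted p = 0.000225), Taf1a of its promoter selectivity factor at 0.59 (adjusted p = 0.00322) and Ubtf, which keeps ribosomal DNA open, at 0.48 (adjusted p = 0.00359) among them. Of 17 measured polymerase III factors 6 were higher and 1 lower. The largest were Gtf3a, the 5S gene factor, at 1.06 (SE 0.11, adjusted p = 4.78e-05), Bdp1, a part of the initiation factor TFIIIB, at 0.82 (adjusted p = 0.000187), and Ssb, the La protein that binds new polymerase III transcripts, at 0.80 (adjusted p = 0.000156). The 1 that fell was Crcp, which encodes a polymerase III stalk subunit under another name, at -0.54 (SE 0.11, adjusted p = 0.00385). With it, 6 of 10 polymerase III genes were higher and 1 lower, a tally added after the values were seen.

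Of 17 polymerase II initiation factors 10 were called higher and none lower, with a median log2 change of 0.48. They included Gtf2b, which positions polymerase II at the start, at 1.23 (SE 0.22, adjusted p = 0.00183), Gtf2e2 of TFIIE at 1.21 (adjusted p = 2.88e-05) and Gtf2h1 of TFIIH at 0.89 (adjusted p = 0.000107). Among 15 TFIID subunits 5 were higher and 1 lower: Taf4b rose most at 1.51 (SE 0.13, adjusted p = 9.08e-06), followed by Taf5 at 1.01 (adjusted p = 0.000791) and Taf9 at 0.76 (adjusted p = 0.000652), and Taf13 fell at -0.61 (adjusted p = 0.000859). Of 25 elongation genes 12 were higher and 1 lower. Supt16, a subunit of the histone chaperone FACT, rose by 1.29 (SE 0.10, adjusted p = 4.65e-06), Larp7, which binds 7SK RNA, by 1.28 (adjusted p = 4.11e-05) and Ctr9 of the PAF complex by 1.21 (adjusted p = 1.43e-05). Ell2, a subunit of the super elongation complex, was lower, with a log2 change of -1.18 (SE 0.17, adjusted p = 0.000444).

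Of 12 genes for polymerase assembly and import 5 were higher and none lower, led by the ATPase Ruvbl2 at 1.37 (SE 0.18, adjusted p = 0.0002), the GTPase Gpn3 at 1.16 (adjusted p = 0.000371) and Ruvbl1 at 1.12 (adjusted p = 2.24e-05). Mitochondrial transcription, which uses an enzyme unrelated to the nuclear ones, had 2 of 6 genes higher and 1 lower. Tfam, which packs and activates mitochondrial DNA, rose by 0.98 (SE 0.15, adjusted p = 0.000565) and Tefm by 0.76 (adjusted p = 0.000467), and Mterf3 fell at -0.52 (adjusted p = 0.00976). The mitochondrial polymerase itself, Polrmt, was not called at 0.13 (adjusted p = 0.445). For each of these lists the count stands against 16.2% higher and 12.7% lower over all genes, and no list was tested as a whole. Most genes of these lists were among the brighter ones. In the separate fit with the dimmest genes set aside, 24.2% were called higher and 17.4% lower, and the lists were not counted there. In the 3 lists with no gene called lower in limma, none was lower at an unadjusted p under 0.05 either.

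**Figure D5:**
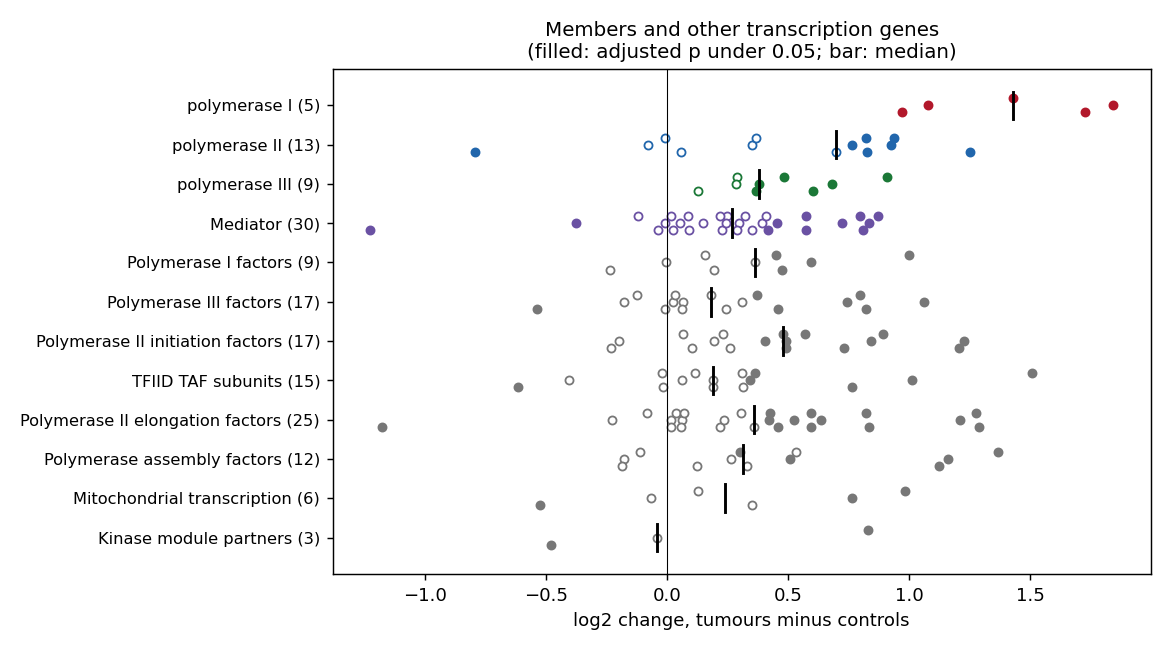
Log2 change (tumours minus controls, horizontal axis) of each gene, 1 row per complex or list with the number measured in brackets, filled where the adjusted p was under 0.05 and with a bar at the median. Polymerase I has the highest median at 1.43, the initiation factors of polymerase II have a median of 0.48, and the kinase module partners lie on both sides of 0.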

How the data were processed

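Deposited values are on the log2 scale, for 34760 probe sets on each of 8 arrays, and were made by the authors with RMA (background correction, normalisation between arrays, summary of probes) in R 3.0.2, per the submitters' processing notes. RMA settings and the genome build are not given in the sources used here. Arrays give no counts, and the 4 arrays per group limit the precision.

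The platform's annotation gave 1 symbol to 21640 probe sets, and 21553 of these were matched to RefSeq names by gene identifier. The probe set with the highest mean over all arrays stood for each of 19937 genes, including 5 members with several. A further gene that the naming rule covers is not reported here. Tumours were compared with control livers in limma 3.58.1 (lmFit, eBayes) under R 4.3.3, with Benjamini-Hochberg adjustment over all genes and a threshold of 0.05. Paralog pairs were compared by a 2-sided exact permutation test over arrays, adjusted over 3 pairs. A simulation on these arrays tested 19937 genes, of which 200 were given a change. At a log2 size of 0.5 the limma step found 32% of the altered genes, and at a size of 1 it found 94%. In the data 5757 genes were called, and the Benjamini-Hochberg cutoff depends on how many genes change. The simulated shares therefore do not give the share of changed genes found in the data. Python 3.11.15, pandas 2.3.3 and matplotlib 3.10.9 made the tables and plots.

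The naming rule reads symbols only, but this set of genes, the gene lists and the tests were chosen with earlier results of these data known. Values by array are given for the largest pair of subunits of each polymerase, the paralog pairs, and up to 4 of the largest changes and 3 of the largest falls past the threshold in each of the 4 name groups. From the other lists, up to 3 of the largest changes and the largest in the less frequent direction are named. Further genes with values by array (Polr1c, Polr2c, Polr2j and Med17) were picked after their values were seen. The alternatives were other normalisation, probe set rules, filtering, variance models, array weights, gene names, the replicate number as a block, and leaving out each array.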

Additional observations from a re-analysis of the deposited data

Results flagged for a closer look

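In 6 of the 114 groups of 4 arrays examined (57 genes, tumours and control livers each), 1 array stood farther from the others than Dixon's 95% critical value allows. Chance alone flags about 1 in 20 such groups, so 6 is near the number expected.

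Polr1e read 6.828 in control liver 4, against 6.567 to 6.605 in the other control livers. Polr3b read 7.712 in control liver 1, against 7.963 to 7.986 in the others. For Polr3gl, tumour 2 stood apart at 7.955, with the other tumours at 7.804 to 7.824.

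Among Mediator genes, Med14 read 8.671 in control liver 4, against 8.915 to 8.943 in the others. Med20 read 7.122 in control liver 1, with the rest at 6.952 to 6.97. Med19 stood out in tumour 4 at 8.109, against 7.722 to 7.773 in the other tumours. The calls on Polr1e, Polr3b and Med14 as higher held without the array named.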

How the results depend on the processing

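Each member was recomputed under 16 alternatives, except Med18 with 15, since the filter on dim genes removes it. Of the 29 called members 22 kept the call in all of them, none changed direction, and Med7, Med10, Med23, Polr2i, Polr3a, Polr3e and Polr3k lost it in at least 1, while 11 of the 28 uncalled members were called in at least 1. The causes were not tested. Some alternatives could move little: the platform's gene names gave the same 5757 calls over all genes. The mean of probe sets alters values only in the 5 members with several. Polymerase I genes called higher numbered 5 throughout (6 of 8 with the subunits under other symbols, added after seeing the data), polymerase II genes 6 to 8, polymerase III genes 4 to 6 (6 of 10 with Crcp, likewise added, with 1 lower in place of 0) and Mediator genes 7 to 13. Polymerase II genes called lower were 0 with array medians subtracted, 0 with the replicate block and 0 to 1 with an array left out. Mediator genes called lower were 1 with the replicate block and 1 to 2 with an array left out. Genes called over the whole table numbered 4831 to 6558, and the median change of all genes stayed between -0.07 and 0.01.

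The members that changed sign were all uncalled. With quantile normalization Med8 was -0.074, Med20 -0.001, Polr2c -0.004 and the change of Polr3g minus Polr3gl -0.003 (exact permutation, adjusted p = 0.971). With array medians subtracted Med16 was 0.006 and Polr2l 0.009. With array weights Med11 was 0.013 and Polr2l 0.121. With an array left out Med8 ran from -0.043 to 0.108, Med11 from -0.111 to 0.018, Med15 from -0.029 to 0.226, Med16 from -0.082 to 0.07, Polr2c from -0.066 to 0.133 and Polr2l from -0.106 to 0.111. The mean of both probe sets gave Polr2c 0.557 (limma, adjusted p = 0.016).

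The labels give tumours and control livers the same numbers 1 to 4. Deviations of same-numbered samples correlated at -0.057, 0.005, 0.055 and -0.32, and no tumour correlated best with its own number, so the numbers were not taken to pair mice. With the replicate number as a block, 5007 genes were called, against 5757 without it, and in limma Polr2i (adjusted p = 0.0959), Polr3a (0.0922), Polr3e (0.0534) and Med7 (0.0506) lost their calls and Med31 gained one (0.0309). The paralog pairs were not tested with the block, where an exact test within 4 pairs cannot reach 0.05. With an array left out (35 splits) the change of Polr3g minus Polr3gl ran from -0.096 to 0.141, that of Med12 minus Med12l from 1.46 to 1.66 and that of Med13 minus Med13l from 0.37 to 0.53. The 2-sided exact permutation p, which doubles the smaller tail and cannot go below 0.0571 there, was 0.0571 throughout for Med12 minus Med12l. Counting splits by absolute difference, added after seeing the data, gave it 0.0286 throughout, and 0.0857 adjusted over the 3 pairs. No pair passed after adjustment either way.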
